A study of Mus musculus with 4 samples.

Results

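The domain described here is a stretch of 6.1 Mb of mouse chromosome 3 (GRCm38), whose first window of 100 kb ends at 109100000 and whose last ends at 115100000. It runs from the transcription start of the minus-strand gene Fam102b past Vav3, Ntng1, Prmt6, the amylase genes, Rnpc3 and Col11a1 into Olfm3. Its members are the windows between these ends that carry a value in all 4 libraries, which were 232 of the 241 windows listed there and of 109033 windows in the table as a whole. Of the 232 windows, 59 do not overlap one another. The domain was chosen by measured polarity, since the window from 111700001 to 111800000 had opposite signs in the 2 genotypes. The differences between genotypes given below describe that choice, and no p-value printed with them is read as a test.

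The data are TrAEL-seq profiles of the mouse embryonic stem cell line 129S6/SvEvTac, from 2 wild-type (WT) libraries and 2 libraries of the same line labelled Snf2h KO. Snf2h is the ATPase of the ISWI chromatin remodelling complexes, which slide and space nucleosomes. The cells were grown in serum and LIF on gelatin, per the labels, which give neither the clone nor how the knockout was made; the profiles hold no Snf2h level that could check the genotype. Cells were grown in duplicate, and whether the duplicates differ in more than the culture is not said, so the spread between them may be technical.

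TrAEL-seq captures free 3′ ends of DNA, which accumulate on one strand at replication forks, and the strand balance of these ends reads the direction in which forks cross a region. Polarity is that balance in windows of 100 kb spaced every 25 kb, as a signed value from -50 to 50; its formula is not given in the sources used here, and from these bounds it is read as percentage points, called points below. In such profiles, forks that leave a zone of initiation in both directions give a steep change of polarity over a short distance, and forks that meet give a slower change in the opposite direction. Which strand counts as positive is not stated in the sources used here, so changes are named only as rises and falls along increasing coordinates.

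The domain is poor in genes. RefSeq places 16 protein-coding genes in it, or 2.62 per Mb, against 8.39 per Mb over the autosomes, and their bodies cover 21.6% of it against 40.0% of the autosomes. Between Prmt6 and Amy2b lies a stretch of 2897 kb, from 110251000 to 113147655, with no protein-coding gene. It holds 1 lncRNA gene (Gm6602), 9 pseudogenes, 1 snRNA gene and 1 snoRNA gene.

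The 250 bases upstream of 5 gene starts, from RefSeq (GRCm38.p6), are shown with every CG dinucleotide in capitals. Prmt6 lies at the border of the stretch without protein-coding genes, and Gm6602 is the only lncRNA gene in it. Amy1, Rnpc3 and Col11a1 were taken because a rise of the mean profile of the 4 libraries runs over them. RefSeq promoter entries were found for 20 of the 39 genes of the domain. The sequences are Prmt6 at chr3:110251000-110251249 (minus strand), Gm6602 at chr3:111881653-111881902 (plus strand), Amy1 at chr3:113577751-113578000 (minus strand), Rnpc3 at chr3:113630150-113630399 (minus strand) and Col11a1 at chr3:114030290-114030539 (plus strand), whose start in the promoter table lies just inside the gene's listed span.
Prmt6: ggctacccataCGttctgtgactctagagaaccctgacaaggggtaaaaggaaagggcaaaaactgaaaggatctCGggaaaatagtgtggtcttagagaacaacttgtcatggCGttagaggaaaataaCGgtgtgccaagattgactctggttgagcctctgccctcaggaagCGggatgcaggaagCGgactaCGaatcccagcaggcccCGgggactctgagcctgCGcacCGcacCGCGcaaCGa
Gm6602: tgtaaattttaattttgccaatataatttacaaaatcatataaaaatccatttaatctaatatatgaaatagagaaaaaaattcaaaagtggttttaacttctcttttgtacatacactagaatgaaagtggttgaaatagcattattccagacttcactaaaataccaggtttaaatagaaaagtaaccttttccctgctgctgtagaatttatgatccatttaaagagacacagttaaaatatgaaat
Amy1: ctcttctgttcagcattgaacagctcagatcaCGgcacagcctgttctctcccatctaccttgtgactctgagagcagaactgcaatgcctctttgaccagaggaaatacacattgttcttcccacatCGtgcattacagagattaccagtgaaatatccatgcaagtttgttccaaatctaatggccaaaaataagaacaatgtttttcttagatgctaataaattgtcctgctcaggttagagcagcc
Rnpc3: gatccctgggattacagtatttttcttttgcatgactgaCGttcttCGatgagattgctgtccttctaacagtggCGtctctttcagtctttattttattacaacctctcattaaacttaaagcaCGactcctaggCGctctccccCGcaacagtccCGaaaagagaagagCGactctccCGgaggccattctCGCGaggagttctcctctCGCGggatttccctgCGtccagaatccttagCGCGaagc
Col11a1: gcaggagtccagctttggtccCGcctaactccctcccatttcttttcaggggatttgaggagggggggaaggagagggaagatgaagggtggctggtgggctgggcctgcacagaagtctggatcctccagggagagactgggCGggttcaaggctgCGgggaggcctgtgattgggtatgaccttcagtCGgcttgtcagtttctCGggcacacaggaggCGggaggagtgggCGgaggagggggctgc
The CG dinucleotide reads the same on both strands, and 92.1% of 32851 RefSeq promoters of this length held at least 1, with a median of 6. Rnpc3 had 16 CG and Prmt6 had 13, counts reached by 25.4% and 31.5% of all promoters. Col11a1 had 7, Amy1 had 2 and Gm6602 had none, with a GC content of 25.2%. Windows of 100 kb cannot place a transition at one of these starts.

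Across the domain, the mean profile of the 4 libraries consisted of 7 segments, 4 falls and 3 rises, each with a change of at least 1 SD of that mean profile (14.8 points). A long fall led from 109100000, near Slc25a54 and Slc25a24, to 111125000 in the stretch without protein-coding genes, and crossed Vav3, Ntng1 and Prmt6. It was not even: in all 4 libraries polarity fell below 0 between 109924 and 109987 kb inside Ntng1, rose above it again between 110050 and 110185 kb, and fell below it once more between 110574 and 110794 kb. It was followed by a rise from 111125000 to 111475000, in which RefSeq lists only the pseudogene Gm9314. A fall to 112000000 came next, and a rise from 112000000 to 112325000 that overlaps Gm6602, the snoRNA gene Gm25519 and the pseudogene Gm4859. After a fall to 113200000 and the gap at the amylase genes, the third rise ran from 113550000 to 114075000 over Amy1, Rnpc3 and the start of Col11a1, and a last fall went through Olfm3 to 115575000, past the last member window. When each library was cut into segments alone, WT replicates 1 and 2 and KO replicate 1 each had 3 rises and 4 falls, and KO replicate 2 had 7 of each. In the mean profile the rises were 350, 325 and 525 kb long and the falls 525 to 2025 kb. The fall before the gap and the rise after it were bounded by missing values. Cut in each library alone, the third rise ended before Col11a1 in WT replicate 1 (113750000), KO replicate 1 (113725000) and KO replicate 2 (113700000). In WT replicate 2 it ran to 114075000, and KO replicate 2 rose again from 113825000 to 114125000.

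**Figure D1:**
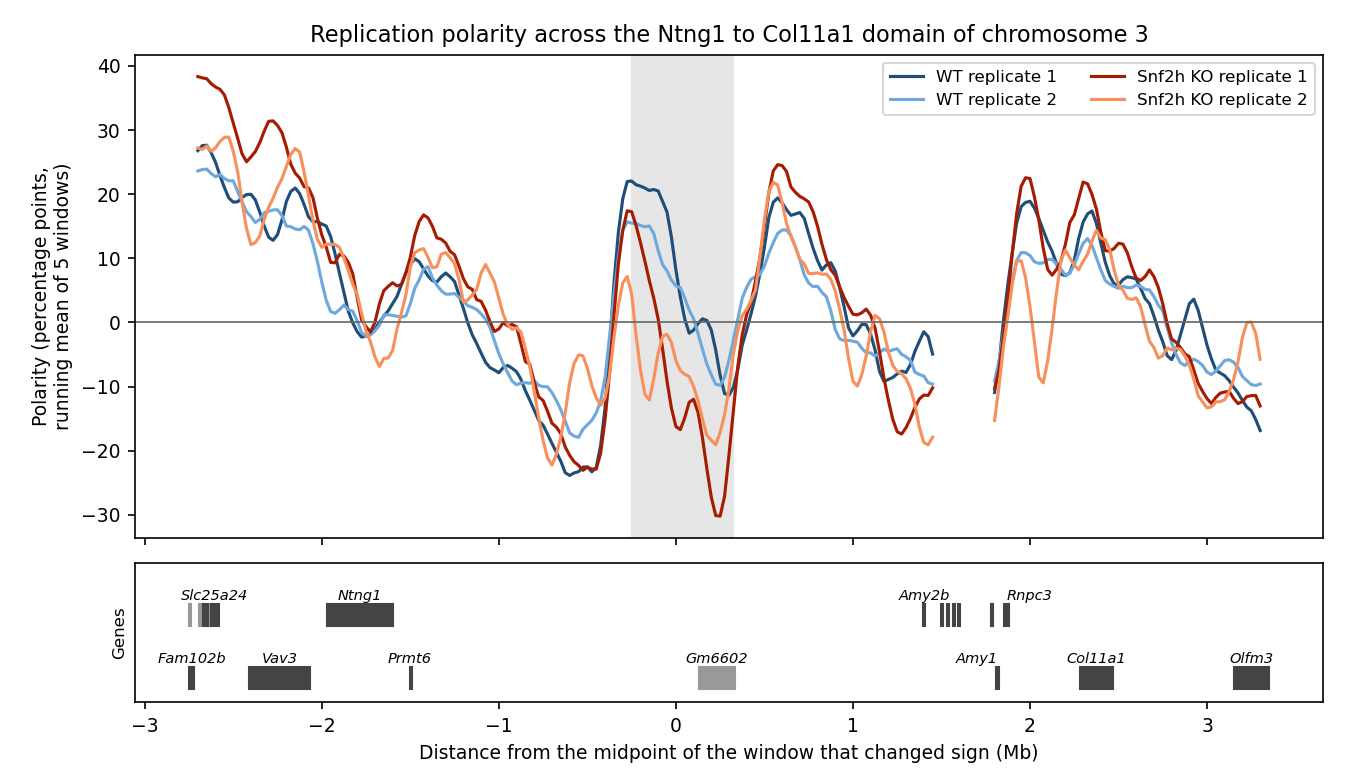
Polarity in each library, as a running mean of 5 windows in percentage points, against the distance in Mb from the midpoint of the window that changed sign, with RefSeq protein-coding genes (dark) and lncRNA genes (light) below. The grey band marks the 575 kb in which both Snf2h KO libraries lay below both WT libraries in 20 consecutive windows, and the lines break at the amylase cluster, where windows had no value.

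The 3 rises crossed 0 within less than the width of a window in all 4 libraries. On the running mean of 5 windows, the rise in the stretch without protein-coding genes crossed at 111385 and 111384 kb for WT replicates 1 and 2 and at 111397 and 111412 kb in KO replicates 1 and 2. The mean crossing lay 20.3 kb further right in KO, with both KO crossings to the right of both WT crossings (pooled replicate SD 7.33 kb), a shift below the 25 kb between window starts. The rise beside Gm6602 crossed at 112161 and 112095 kb for WT and at 112140 and 112114 kb for KO, with the KO libraries between the WT libraries. The rise at Amy1 and Rnpc3 crossed at 113599 and 113610 kb for WT and at 113609 and 113620 kb for KO.

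The downward crossing that follows the first of these rises lay elsewhere in KO. Polarity first fell below 0 at 111806 and 111856 kb in the WT libraries, and WT replicate 1 rose slightly above 0 again before a last crossing at 111930 kb. In the KO libraries it did so at 111653 and 111517 kb. The genotype means were 111831 ± 35.4 kb and 111585 ± 95.8 kb (SD, n = 2 each), a difference of -246 kb against a pooled replicate SD of 72.2 kb. The stretch of positive polarity to the right of the rise was therefore 421 and 472 kb long in WT but 256 and 105 kb long in KO. The KO libraries did not overlap the WT libraries in that length, and they also differed from each other by more than the WT libraries did.

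Values per window show the same place. In the window from 111400001, at the upper end of the rise, polarity was 22.9 and 17.2 points for WT and 20.3 and 14.4 points for KO, and the genotypes overlapped. In the window from 111500001 it was 22.5 and 14.6 points for WT, 12.9 points in the first KO library and -13.0 in the second. The KO libraries there lay on different sides of 0, and their SD of 18.3 points was close to the genotype difference of -18.6 points, which was -5.65 points without KO replicate 2 and -31.5 points without KO replicate 1. In the window from 111600001, polarity was 19.9 and 12.9 points for WT and 2.33 and -1.06 points for KO, a difference of -15.8 points against a pooled replicate SD of 3.92 points. None of these 3 windows overlaps a RefSeq gene.

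The window from 111700001 to 111800000, which chose the domain, also holds no RefSeq gene. Polarity was 10.9 and 8.71 points for WT (9.79 ± 1.53 points, SD, n = 2) and -23.3 and -10.3 points for KO (-16.8 ± 9.22 points, SD, n = 2). Every WT value was positive and every KO value negative, and the difference was -26.6 points (SE 4.94 in the limma fit). Its adjusted p in limma was 0.0499, just under the threshold of 0.05, and belongs to the values that chose the domain. The limma adjusted p was 0.0513 after centring, 0.390 on the atanh scale and 0.0807 with X in the fit. Below the threshold, it was 0.0150 after standardising and 5.53e-05 with the trend and robust options. In these 2 fits 90 and 302 of all windows passed. As these p-values belong to the values that chose the domain, nothing is read from them. Without single libraries the difference was -33.1 to -20.1 points. In the fit that gave 0.0499, the threshold was passed by 1 of 59 domain windows, lower in KO, and by none in the other direction. Over all 23672 windows fitted, 0.0549% passed, 0.0211% lower and 0.0338% higher in KO, and at an unadjusted p under 0.05 the shares were 12.2% overall and 8 of the 59. As this contrast chose the domain, nothing is read from those counts. Opposite signs in the genotypes were found in 6 of the 232 domain windows beside 4.24% of all overlapping windows, and in 2 of the 59 beside 4.15% of those that do not overlap. All 6 windows that overlap the one from 111700001 had both KO values below both WT values. In the window that starts at 111725001, with 0.296 and 5.56 points for WT and -18.7 and -7.58 points for KO, the opposite signs were still present.

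**Figure D2:**
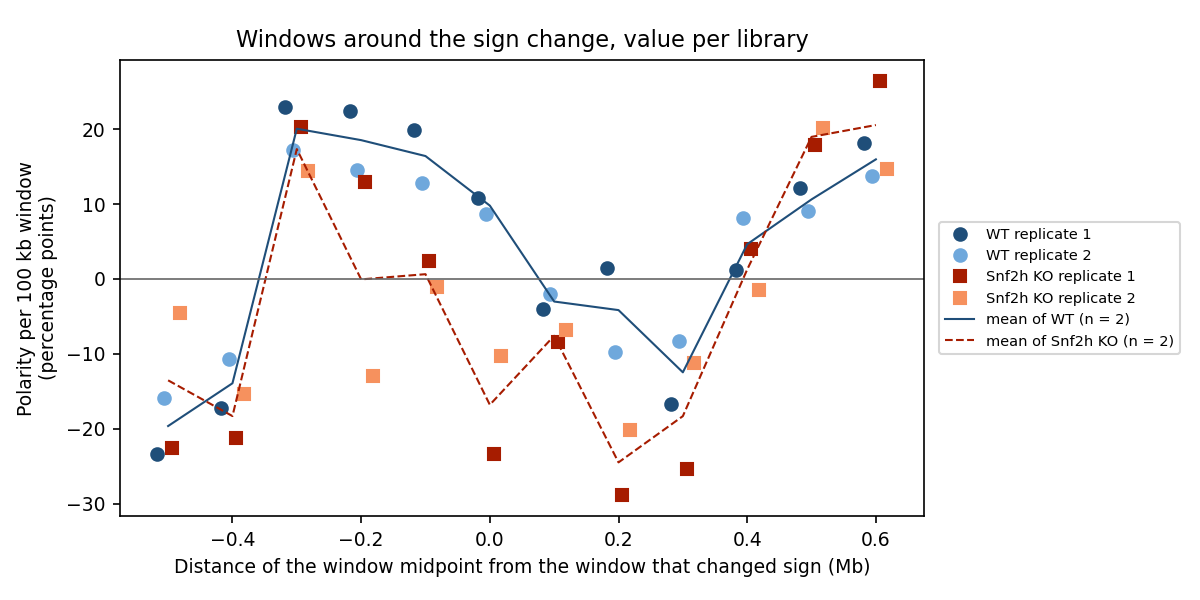
Polarity in percentage points of the windows that do not overlap, from 0.5 Mb left to 0.6 Mb right of the window that changed sign, with a point per library and a line for each genotype mean. From -0.2 to 0.2 Mb both KO libraries lie below both WT libraries, at 0 Mb on the other side of 0, and at -0.3, 0.3 and 0.4 Mb the genotypes overlap.

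Further right, the next 3 windows bring the profile to its low point over Gm6602, a lncRNA gene of 200.1 kb on the plus strand. From 111800001 polarity was -4.02 and -2.02 points for WT and -8.41 and -6.79 points for KO, a difference of -4.58 points. From 111900001 it was 1.42 and -9.75 points for WT and -28.9 and -20.1 points for KO, a difference of -20.3 points against a pooled replicate SD of 7.10 points. From 112000001 it was -16.7 and -8.29 points for WT and -25.4 and -11.2 points for KO, and the genotypes overlapped. Averaged over the 8 windows with midpoints inside Gm6602, polarity was -6.05 and -7.61 points for WT and -25.7 and -16.1 points for KO, and both KO values lay below both WT values in 6 of the 8, beside 22.5% of all autosomal windows. These windows lie around the one that chose the domain, so nothing is read from that count. At the window nearest to its start, polarity was near 0 in WT, at -0.289 and -0.568 points, and at -11.1 and -12.0 points in the KO libraries.

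The longest run of windows with lower KO values lay here. From 111500001 to 112075000, both KO values lay below both WT values in 20 consecutive overlapping windows, which span 575 kb. Mean polarity over these windows was 7.08 and 3.14 points for WT and -12.3 and -11.1 points for KO, or 5.11 ± 2.79 and -11.7 ± 0.822 points (SD, n = 2 each). Of the 20 windows, 13 and 12 were positive in the WT libraries and 5 and 2 in the KO libraries. When each library was divided by its own SD over autosomal windows (14.6 and 12.8 points for WT, 19.5 and 14.5 points for KO), all 20 windows remained lower in KO, with means of 0.484 and 0.245 SD for WT and -0.630 and -0.764 SD for KO. The other 30 windows of the domain with lower KO values lay in shorter runs, the next longest of 11 windows from 114600001 to 114950000, which ends just inside Olfm3. Overlapping windows share reads, so the run is not 20 separate observations. Over all autosomes, counting runs higher and runs lower in KO, there were 37 of at least this length among 13016, the longest of 30 windows, and the median run had 2 windows.

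Of the rises on either side, the left one overlapped between genotypes in points. Over the rise from 111125000 to 111475000, polarity increased by 45.4 and 31.1 points for WT and by 36.8 and 21.3 points for KO. The difference of -9.19 points was smaller than the replicate spread (pooled SD 10.6 points), with KO replicate 1 between the WT libraries. It was -1.42 points without KO replicate 2, -17.0 without KO replicate 1, -2.02 without WT replicate 1 and -16.4 without WT replicate 2. In units of each library's SD the groups did not overlap, at 3.10 and 2.42 for WT and 1.89 and 1.47 for KO.

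The rise beside Gm6602, from 112000000 to 112325000, was larger in KO. It measured 27.7 and 23.7 points for WT (25.7 ± 2.81 points, SD, n = 2) and 54.8 and 38.6 points for KO (46.7 ± 11.5 points, SD, n = 2). Both KO libraries were above both WT libraries, and the difference of 21.0 points exceeded the pooled replicate SD of 8.37 points. It was 12.9 points without KO replicate 1 and 29.1 points without KO replicate 2. In SD units the values were 1.89 and 1.85 for WT and 2.82 and 2.65 for KO, again without overlap. Its lower end at 112000 kb was -8.25 and -9.83 points for WT and -30.2 and -17.1 points for KO, whereas its upper end at 112325 kb was 19.4 and 13.9 points for WT and 24.6 and 21.4 points for KO. In SD units the upper end was 1.33 and 1.08 for WT and 1.26 and 1.47 for KO, and overlapped. The lower end lies inside the run around the window that chose the domain, so the size of this rise is not independent of that choice.

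At Amy1 and Rnpc3 the third rise did not separate the genotypes. Amy1 encodes salivary amylase, and Rnpc3 encodes a protein of the minor spliceosome. The rise measured 27.8 and 22.2 points for WT and 31.9 and 25.9 points for KO, a difference of 3.91 points against a pooled replicate SD of 4.11 points. Without single libraries it was 0.917 (KO replicate 1), 1.09 (WT replicate 2), 6.73 (WT replicate 1) and 6.90 points (KO replicate 2). In SD units it was 1.90 and 1.73 for WT and 1.64 and 1.79 for KO. The window nearest to the Rnpc3 start had 7.85 and 4.50 points for WT and 5.24 and 1.65 points for KO, and the window nearest to the Amy1 start had -5.65 and -6.65 points for WT and -9.84 and -8.70 points for KO.

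The falls between the rises were less regular. The fall from 111475000 to 112000000 measured -30.2 and -25.5 points for WT and -47.6 and -24.3 points for KO, with the WT libraries between the KO libraries; its difference of -8.09 points was 3.57 points without KO replicate 1 and -19.7 points without KO replicate 2. The fall from 112325000 to 113200000, which ends at Amy2b, measured -24.4 and -23.5 points for WT and -34.8 and -39.3 points for KO. It was larger in both KO libraries, by 13.1 points (difference -13.1, pooled replicate SD 2.29), but in SD units the genotypes overlapped, at -1.67 and -1.83 for WT and -1.79 and -2.71 for KO. The last fall, from Col11a1 through Olfm3, rests in part on windows beyond the domain and measured -44.2 and -34.2 points for WT and -57.4 and -40.1 points for KO and overlapped on both scales.

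**Figure D3:**
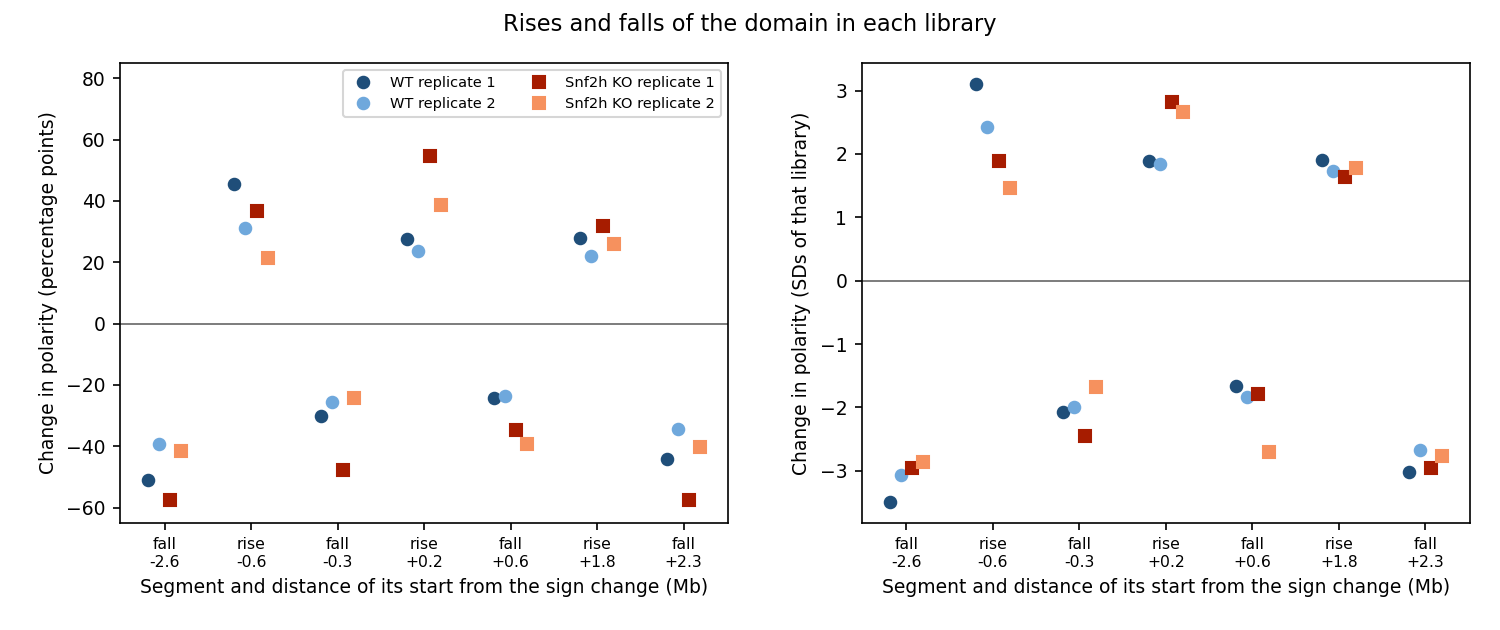
Change in polarity over each of the 7 segments of the mean profile, with a point per library, in percentage points (left) and in SDs of that library over autosomal windows (right); labels below give each segment's direction and the distance of its start from the window that changed sign. Both KO libraries exceed both WT libraries in the rise that starts at +0.2 Mb on both scales, and lie below them in the rise that starts at -0.6 Mb on the right scale only. The first fall is smaller in both KO libraries on the right scale only. The fall before the amylase gap is larger in both on the left scale only.

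On the left flank, the long fall starts at 109100 kb from 27.6 and 23.9 points for WT and 38.0 and 27.5 points for KO. In SD units these tops were 1.89 and 1.86 for WT and 1.95 and 1.90 for KO, a difference of 0.0487 SD. The fall itself measured -51.1 and -39.3 points for WT and -57.4 and -41.7 points for KO, and overlapped. In SD units it was -3.49 and -3.06 for WT and -2.95 and -2.87 for KO, without overlap. Of the 81 windows along this fall, both KO values lay above both WT values in 37 and below them in none; after division by the library SD, 29 lay above and 4 below. Over the 21 windows of the fall from 111475000 to 112000000, the counts were 0 above and 18 below, and 0 and 21 after division. In the whole domain 106 of 232 windows were separated in this way beside 44.6% of all autosomal windows. Of these, 56 lay above and 50 below, or 24.1% and 21.6%, beside 22.2% and 22.5%.

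The genes of this flank sit on the slope. Vav3, a guanine nucleotide exchange factor, is 345.2 kb long and lies on the plus strand. Averaged over its 14 windows, polarity was 17.4 and 15.9 points for WT and 26.8 and 20.4 points for KO, so every library's mean was positive. Ntng1, which encodes netrin-G1, a membrane-anchored protein of axons, spans 369.9 kb on the minus strand around the point where the profile nears 0. Its 14 windows averaged 2.01 and 0.307 points for WT and 5.13 and 2.70 points for KO. In the window from 109900001, inside Ntng1, the WT values were -1.87 and -1.76 points and the KO values 4.21 and 4.12 points. Prmt6, an arginine methyltransferase, had 10.8 and 0 points for WT and 9.05 and 5.56 points for KO at its start, where the groups overlapped.

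The right flank carries Col11a1 and Olfm3. Col11a1, a chain of the fibrillar collagen of cartilage, averaged 14.6 and 10.1 points for WT and 16.7 and 12.3 points for KO over 7 windows, so every library's mean was positive. Olfm3, which encodes an olfactomedin-domain protein secreted by neural and eye tissue, had -9.90 and -5.28 points for WT and -12.4 and -11.5 points for KO in the window nearest to its start. Over the 6 windows with midpoints inside Olfm3 the means were -13.6 and -9.44 points for WT and -11.7 and -0.772 points for KO, with both KO values above both WT values in 2 of them and below in none, beside 22.2% and 22.5% of all autosomal windows. Between Rnpc3 and Col11a1, the window from 113800001 held 13.3 and 9.38 points for WT, 6.10 points in the first KO library and -14.7 in the second. Both KO values were lower, but its difference of -15.6 points came mostly from KO replicate 2 and was -5.22 points without it. That library alone dipped below 0 there on the running mean, between 113761 and 113879 kb.

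The amylase genes could be read only at their edges. These genes are tandem copies of high sequence similarity. Of the 241 windows, 8 from 113250001 to 113525000, which cover Amy2a2, Amy2a3 and Amy2a4, had no value in any library, and the window from 113225001 had none in KO replicate 1. Amy2b, at the left edge of the cluster, had 2.02 and -10.3 points for WT and -10.0 and -18.5 points for KO, and the groups overlapped. Amy2a5 had -11.6 and -9.52 points for WT and -4.29 and -11.1 points for KO in the last window before the gap. Amy2a1, on the right edge, had -20.4 and -13.4 points for WT and -12.7 and -23.7 points for KO.

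Polarity at gene starts was set beside the strand of the gene. Of the 16 protein-coding genes, 12 had a member window centred nearest to the start, 5 on the plus strand and 7 on the minus strand. The start window was positive in all 4 libraries for 4 of the 5 plus-strand genes (Slc25a54, Slc25a24, Vav3 and Col11a1) and negative in all 4 for Olfm3. Among the 7 minus-strand genes it was positive in all 4 libraries for Rnpc3, negative in all 4 for Amy2a5, Amy2a1 and Amy1, and of mixed sign or 0 for Ntng1, Prmt6 and Amy2b. Both KO values lay on one side of both WT values at 2 of the 12 starts, Amy1 and Olfm3, both lower in KO, beside 44.6% of all autosomal windows. Neighbouring genes share windows, and the number of genes is small.

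Amplitude in the domain was compared by the SD of polarity over the 59 windows that do not overlap. It was 13.3 and 10.4 points for WT (11.9 ± 2.07 points, SD, n = 2) and 16.7 and 13.1 points for KO (14.9 ± 2.51 points, SD, n = 2). The difference of 3.03 points was larger than the replicate spread (pooled SD 2.30 points), although the value of KO replicate 2 was just below that of WT replicate 1. It was 1.26 points without KO replicate 1, 1.57 without WT replicate 2 and 4.80 without KO replicate 2. Over all autosomes the difference was 3.26 points, and after division by each library's autosomal SD the domain's difference was 0.0192 SD. Local roughness, the SD of each value minus the mean of its neighbours on either side, was 7.73 and 4.65 points for WT and 8.39 and 10.2 points for KO.

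Similarity of the profiles within the domain was lower than over the autosomes for every pair of libraries. Pearson's r over the 59 windows was 0.894 within WT and 0.825 within KO. Across genotypes, KO replicate 1 reached 0.825 against WT replicate 1 and 0.879 against WT replicate 2, and KO replicate 2 reached 0.649 and 0.730. Over 23672 autosomal windows the corresponding values were 0.941 and 0.912 within genotypes and 0.865 to 0.917 between them. Windows of a pair share libraries and slopes, so these values are descriptions. The mean r within minus between genotypes was 0.0889 in the domain, 0.205 without KO replicate 1, 0.0421 without KO replicate 2 and 0.0206 without WT replicate 1.

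The domain was set beside all 359 consecutive autosomal stretches of 6.1 Mb with at least 55 windows. The mean absolute difference between genotypes per window was 5.97 points in the domain and 5.06 points in the median stretch, and 44 stretches had more. The mean r between genotypes was 0.771 against a median of 0.897, with 339 stretches above it, and the mean r within genotypes was 0.859 against a median of 0.931, with 335 above it. Windows with both KO values on one side of both WT values made up 45.8% of the 59 domain windows and 44.3% in the median stretch, beside 44.7% of all windows. The SD of the mean WT profile was 11.6 points in the domain and 13.6 points in the median stretch. Because the domain was picked for a difference, its place among the stretches is a description.

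**Figure D4:**
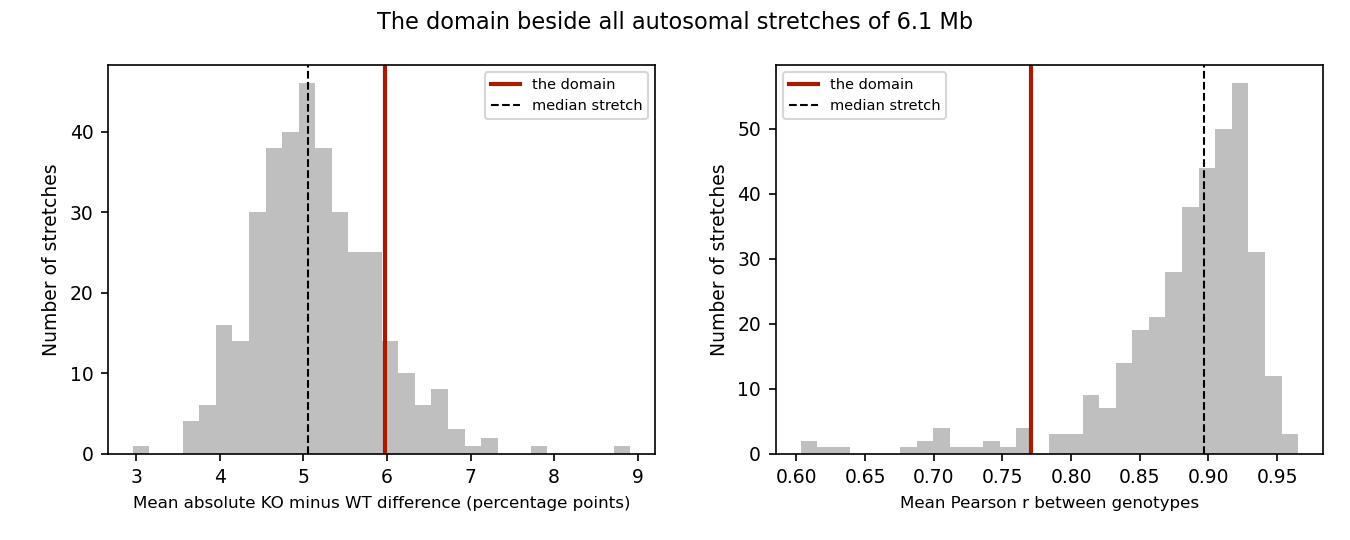
Histograms over 359 autosomal stretches of 6.1 Mb of the mean absolute difference between genotypes per window, in percentage points (left), and of the mean Pearson r between libraries of different genotype (right). The solid line marks the domain, at 5.97 points and 0.771, and the dashed line the median stretch, at 5.06 points and 0.897.

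Coverage in the domain was even between libraries as far as the table shows it, with 8 windows without a value in each library except KO replicate 1, which had 9. The table holds no read numbers, so depth is unknown and no confidence interval was computed. With 2 against 2 libraries, an exact permutation test cannot go below p = 0.33. Local roughness in the domain was highest in KO replicate 2, whereas over the autosomes it was 10.6 points for KO replicate 1 and 9.18 for KO replicate 2, and its part in the differences above was not tested. At the borders of the rule, the first member window had 28.4 and 23.4 points for WT and 40.8 and 30.5 points for KO, and the window just outside 25.5, 21.4, 37.6 and 23.4 points in the same order. The last member window had -15.7, -11.3, -12.3 and -4.55 points, and the next outside -19.3, -10.3, -15.3 and -10.7 points.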

How the data were processed

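TrAEL-seq libraries of 2 WT and 2 Snf2h KO cultures were grouped by the labels. Alignment with bowtie2 to GRCm38 with rRNA and removal of duplicates are recorded per the file headers; the submitters' processing notes list Trim Galore 0.6.5 and Bowtie2 2.4.1. The deposited values are a score per window and library, a signed strand imbalance from -50 to 50 points; the program, the positive strand and any read minimum are not given in the sources used here. The column of WT replicate 2 carries another index than its label and was matched by the rest of its name. No pair of libraries shared over 0.109% of values exactly.

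Full-length autosomal windows with 4 values were used. Windows spaced 100 kb were fitted with limma 3.58.1 (R 4.3.3, lmFit and eBayes, Benjamini-Hochberg over 23672 windows, threshold 0.05), and the fit was tested on simulated data. Segments are changes of at least 1 SD between turning points of a running mean of 5 windows; crossings are interpolated. By rule, the text names non-overlapping windows past the threshold, the 5 with the largest differences among those whose genotypes did not overlap, and all protein-coding genes and segments; windows beside them and Gm6602 were added after their values were seen. Genes and promoters are from RefSeq tables. Members, lists and rules were chosen with earlier results of these data known. Python 3.11.15, numpy 2.4.6 and pandas 2.3.3 were used.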

Additional observations from a re-analysis of the deposited data

How the results depend on the processing

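Replicate SDs rest on 2 libraries per genotype, and depth is unknown. The cause of the changes below was not tested. The count of windows past the threshold in the domain, 1 with limma on the deposited scale (13 over all 23672 windows; 8 in the domain at an unadjusted p under 0.05), was 0 after centring, 0 on the atanh scale and 0 with X in the fit (8 unadjusted in each; 12, 0 and 11 over all windows), 3 with the trend and robust options of limma (302 over all), 5 under the replicate block (630 over all) and 5 with the replicate block and standardising (654 over all). It was 0 to 10 without single libraries, 0 without WT replicate 1 or 2 (3 and 6 unadjusted; 8 and 7 over all), 10 without KO replicate 1 and 7 without KO replicate 2, where 1371 and 4790 passed over all windows. In these fits the lone library is assumed to vary like the other genotype. The count was also 1 after standardising, over overlapping windows and at a threshold of 0.1, with 90, 72 and 54 over all windows. The window from 111700001 kept its sign under every alternative run, but its limma adjusted p was 0.0513 after centring (-26.6 points), 0.390 on the atanh scale (-0.556 in atanh units) and 0.0807 with X (-26.6 points). Without single libraries its difference was -33.1 to -20.1 points.

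The numbers shared by the genotypes gave deviations that correlated at 0.241 over autosomal windows, at 0.0158 after standardising and at 0.292 over the domain's windows. With 2 pairs and no label that ties them, the libraries share only a number, and the replicate block is given only here. Beside the count above, it gave the window from 111700001 a limma adjusted p of 2.46e-05, and 0.000143 with standardising. It took the windows from 111500001, 111600001, 111900001 and 113800001 past the threshold (limma adjusted p 0.00854, 0.0270, 0.00364 and 0.0322). All these windows were named for large differences in a domain chosen by this contrast, so nothing is read from that. Without KO replicate 2 the differences from 111500001 and 113800001 were -5.65 and -5.22 points. Separated windows were 27 of 59 without overlap against 106 of 232, and 152 to 185 without single libraries, where fewer values have to separate; the autosomal share then also lay between 61.3% and 84.2%. The difference in SD was 0.0192 SD after standardising, which divides amplitude out, and 1.26 to 4.80 points without single libraries. The within minus between correlation was 0.0206 to 0.205. The KO minus WT shift of the downward crossing was -313.9 to -178.4 kb without single libraries and -229 kb with a running mean of 3 windows. With 9 windows KO replicate 2 did not rise above 0 there, so no value could be given. Segments numbered 9 and 6 with running means of 3 and 9 windows and 11 with a minimum of 0.5 SD. The alternatives for the windows other than that from 111700001, for single segments and their standardised scale, for the longest run and for leaving out libraries in the crossing were chosen after seeing the data.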
